A study of Mus musculus with 24 samples.

Results

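Microglia are the resident macrophages of brain tissue, and the genes described here are 9 that mark them: Cx3cr1, P2ry12, Tmem119, Csf1r, C1qa, C1qb, C1qc, Trem2 and Tyrobp. They were picked by symbol, and they are 9 of the 55254 genes counted. Nuclei came from hippocampi of C57BL/6N males that were 6 months old. They were sorted by flow cytometry with an antibody to NeuN, a protein of neuronal nuclei, into NeuN+ and NeuN- fractions, and the nuclear RNA of each fraction was sequenced. The genotypes were wild type (WT), Mutyh-/-, Ogg1-/- and a double knockout (DKO) that lacks both genes, with 3 replicates of each in each fraction, which gave 8 groups and 24 libraries. Ogg1 and Mutyh encode DNA glycosylases, repair enzymes that act on oxidised guanine and on adenine mispaired with it. The study's methods describe pooling of animals both for the sort and for the nuclear RNA, but with different numbers of animals. The make-up of a replicate is therefore unclear, and every SD and p-value given here measures the spread between these libraries. The fractions were run on different sequencing lanes, so lane and fraction cannot be told apart.

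Microglia settle in the brain before birth, renew themselves there, and need signalling through Csf1r to survive. Their processes scan the surrounding tissue, where Cx3cr1 responds to fractalkine made by neurons and P2ry12 to nucleotides set free by active or damaged cells. They make most of the C1q of the brain, which starts the classical complement cascade and tags synapses and debris for removal, and Trem2 with its signalling partner Tyrobp senses lipids and drives their uptake.

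The genotype labels were checked on the RNA of the target genes. Mutyh RNA separated the libraries as their Mutyh labels do, but in the direction opposite to a loss of RNA. Levels are given in CPM, edgeR's unit for the count of a gene relative to the size of its library (per 1000000 counts) after TMM scaling, which corrects for differences in library make-up. In NeuN+ nuclei, Mutyh RNA stood at 1.15, 1.28 and 1.27 CPM in the WT libraries and at 11.4, 11.5 and 9.88 CPM in those labelled Mutyh-/-. It stood at 8.47, 9.20 and 12.2 CPM in libraries labelled DKO and at 1.41, 1.15 and 1.38 CPM with the Ogg1-/- label. Mutyh RNA was therefore higher, not lower, wherever the label says that Mutyh was knocked out. Its log2 fold change, the difference from WT in doublings, was 3.15 in libraries labelled Mutyh-/- (adjusted p = 2.34e-08) and 2.99 with the DKO label (adjusted p = 3.06e-08), by the quasi-likelihood test of edgeR, with the Benjamini-Hochberg method over all tested genes, which is the test used throughout. NeuN- nuclei gave the same direction, with 2.82, 2.60 and 2.39 CPM in WT, 9.33, 9.71 and 9.28 CPM in libraries labelled Mutyh-/-, 3.29, 3.24 and 2.92 CPM with the Ogg1-/- label and 6.65, 8.04 and 9.22 CPM with the DKO label. Ogg1 RNA did not pass the test in libraries labelled Ogg1-/-, with log2 fold changes of 0.05 in NeuN+ and 0.02 in NeuN- nuclei. Counts per gene do not show which exons were read, so genotype names are used here as labels only, and the study's methods state that the animals were genotyped again from DNA.

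Total counts ranged from 56563586 to 96192142 per library, with a median of 70434612. The counts behind the 9 genes differed widely between the fractions. In NeuN- nuclei the count per library ran from 188 to 468 for Tyrobp, the member read least, and from 11579 to 22410 for Csf1r, the member read most. In NeuN+ nuclei the counts of Tmem119, C1qa, C1qb, C1qc, Trem2 and Tyrobp lay between 0 and 19. The handling of strand and of overlapping genes in the counting is not stated, so it was examined in the counts themselves. Where a gene with at least 50 counts lies wholly inside another, 200 bases or more from its ends, the outer gene's count was at least that of the inner gene in 99.96% of cases in NeuN+ nuclei, for pairs on the same strand and for pairs on opposite strands. In NeuN- nuclei the share was 99.91% on the same strand and 99.93% on opposite strands. A count is therefore read as covering the whole span of a gene, introns included, on both strands, with reads of overlapping genes given to each of them. Levels of different genes are compared as CPM per kilobase (kb) of gene span, and a member that overlaps another gene is uncertain to that extent.

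In NeuN- nuclei, the fraction where microglial nuclei belong because they hold no NeuN, all 9 genes were read in all 12 libraries. Per kb of gene span, the C1q subunits and Csf1r stood highest and Cx3cr1 and Tyrobp lowest. C1qc averaged 8.48 ± 1.00 CPM per kb (SD, n = 12) and was above C1qa, at 8.19 ± 0.928, in 9 of 12 libraries, so these neighbours were not apart beyond their spread. Csf1r followed at 6.41 ± 0.532 CPM per kb and C1qb at 5.17 ± 0.597. Tmem119, a membrane protein found in microglia and in few other brain cells, held a middle place at 4.07 ± 0.535 CPM per kb. Trem2 averaged 2.12 ± 0.229 CPM per kb and P2ry12 1.88 ± 0.201. Cx3cr1, at 1.04 ± 0.0662 CPM per kb, was above Tyrobp, at 0.985 ± 0.135, in 9 of 12 libraries. Every other member was above the next in this order in 12 of 12 libraries. The low place of Cx3cr1 rests on division by a gene model of 168264 bases, 57.4% of it shared with other genes. Before that division its mean was 175 CPM, beside 202 CPM for Csf1r and 3.77 CPM for Tyrobp.

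**Figure D1:**
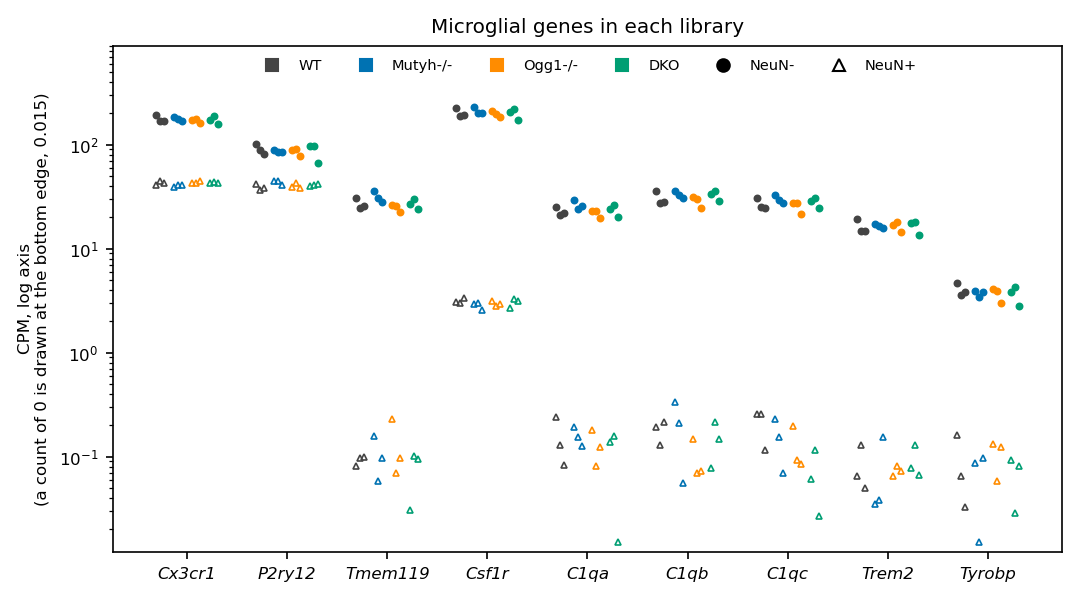
CPM of each of the 9 genes on a log axis in the 24 libraries, with filled circles for NeuN- and open triangles for NeuN+ nuclei, coloured by genotype label; a count of 0 is drawn at the bottom edge. The circles of every gene lie above its triangles, and the gap is narrowest for P2ry12 and Cx3cr1.

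The receptors Csf1r, Cx3cr1 and P2ry12 had the largest counts. Csf1r, the receptor for the growth factors Csf1 and Il34, is ENSMUSG00000024621 on chromosome 18, bases 61100598 to 61132149 of GRCm38, plus strand, and 3.0% of its span is shared with 2 other genes. In NeuN- nuclei its level was 225, 187 and 192 CPM in WT, 229, 204 and 204 in libraries labelled Mutyh-/-, 209, 198 and 185 with the Ogg1-/- label and 205, 219 and 172 with the DKO label. All 4 groups overlapped, and the lowest value was that of DKO replicate 3. Cx3cr1, the fractalkine receptor, is ENSMUSG00000052336 on chromosome 9, bases 119901616 to 120069879, minus strand. Its level was 195, 168 and 169 CPM in WT, 185, 177 and 168 in libraries labelled Mutyh-/-, 173, 178 and 161 with the Ogg1-/- label and 174, 191 and 159 with the DKO label. The Cx3cr1 gene model is 168264 bases long and 57.4% of it is shared with 9 other genes, so its counts include reads of those genes. P2ry12, the receptor for adenosine diphosphate, is ENSMUSG00000036353 on chromosome 3, bases 59216272 to 59262871, minus strand, wholly inside Med12l on the opposite strand. Its level was 101, 88.9 and 80.7 CPM in WT, 89.7, 85.0 and 85.3 in libraries labelled Mutyh-/-, 88.1, 91.4 and 77.5 with the Ogg1-/- label and 97.8, 96.8 and 67.2 with the DKO label. DKO replicate 3 was again lowest, and all 4 groups overlapped for each of these receptors.

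Tmem119 is ENSMUSG00000054675 on chromosome 5, bases 113793729 to 113800516, minus strand, and shares no base with another gene. In NeuN- nuclei it stood at 30.8, 24.9 and 25.7 CPM in WT, 35.8, 30.4 and 28.0 in libraries labelled Mutyh-/-, 26.1, 25.8 and 22.7 with the Ogg1-/- label and 27.0, 30.1 and 23.9 with the DKO label. The 3 libraries labelled Mutyh-/- lay above the 3 labelled Ogg1-/- with no overlap, while both groups overlapped WT. The share of all genes whose groups separate in this way was not counted.

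Trem2, the lipid-sensing receptor, is ENSMUSG00000023992 on chromosome 17, bases 48346401 to 48354147, plus strand. It stood at 19.5, 14.9 and 14.9 CPM in the WT libraries of NeuN- nuclei, 17.3, 16.4 and 15.7 in those labelled Mutyh-/-, 16.8, 18.0 and 14.6 with the Ogg1-/- label and 17.5, 18.0 and 13.4 with the DKO label. The group means ran only from 16.3 CPM in libraries labelled DKO to 16.5 CPM in those labelled Mutyh-/- and Ogg1-/-. Tyrobp, the adaptor that carries the Trem2 signal into the cell, is ENSMUSG00000030579 on chromosome 7, bases 30413760 to 30417585, plus strand. Its level was 4.69, 3.59 and 3.80 CPM in WT, 3.95, 3.47 and 3.85 in libraries labelled Mutyh-/-, 4.07, 3.96 and 3.00 with the Ogg1-/- label and 3.82, 4.24 and 2.79 with the DKO label. WT replicate 1 was highest for both genes and DKO replicate 3 lowest, and neither gene overlaps another.

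C1qa, C1qb and C1qc encode the chains that together form C1q, and the genes lie side by side on the minus strand of chromosome 4. C1qb (ENSMUSG00000036905) spans bases 136880129 to 136886187, C1qc (ENSMUSG00000036896) bases 136889804 to 136893065 and C1qa (ENSMUSG00000036887) bases 136895917 to 136898803, and none overlaps another gene. C1qa stood at 25.1, 21.3 and 22.0 CPM in the WT libraries of NeuN- nuclei, 29.2, 24.3 and 25.7 in those labelled Mutyh-/-, 22.8, 22.8 and 19.8 with the Ogg1-/- label and 24.2, 26.1 and 20.4 with the DKO label. Like Tmem119, it was higher in each library labelled Mutyh-/- than in any labelled Ogg1-/-. C1qb stood at 35.7, 27.5 and 28.4 CPM in WT, 35.9, 32.6 and 30.5 in libraries labelled Mutyh-/-, 31.4, 30.1 and 24.9 with the Ogg1-/- label and 33.7, 36.2 and 28.8 with the DKO label. C1qc stood at 30.8, 25.4 and 24.6 CPM in WT, 33.0, 29.5 and 27.5 in libraries labelled Mutyh-/-, 27.6, 27.8 and 21.4 with the Ogg1-/- label and 28.9, 30.8 and 24.6 with the DKO label. The chains kept nearly the same proportions in every library. Of the summed C1q counts, C1qa made up 27.4 to 30.7% over the 12 libraries (median 28.1%), C1qb 36.4 to 39.1% (median 37.8%) and C1qc 32.4 to 34.5% (median 33.5%).

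Since the members varied together from library to library, their promoters were searched for a shared sequence, the 6 letters GAGGAA on either strand (TTCCTC where it lies on the reverse strand), the core bound by PU.1, a transcription factor that macrophages need. Promoter windows ran from 250 bases before to 50 bases after the start, from RefSeq (GRCm38.p6). Tmem119, Csf1r, C1qa and Tyrobp were not searched, so the share below is not that of all 9 members. The windows searched were those of 5 of the 9 members, P2ry12, C1qb, C1qc, Cx3cr1 and Trem2. The letters were in 3 of these 5 windows (60.0%), against 28.3% of the 32851 windows of all genes and 55.0% of the 40 windows of other microglial genes. A match describes the letters only and is no evidence of binding. The windows of C1qb (chr4:136886151-136886450, minus strand), C1qc (chr4:136892865-136893164, minus strand) and Trem2 (chr17:48346151-48346450, plus strand) are shown because they hold the letters, which are in capitals and lie at −30 in C1qb, −193 in C1qc and −40 in Trem2 from the start.
C1qb: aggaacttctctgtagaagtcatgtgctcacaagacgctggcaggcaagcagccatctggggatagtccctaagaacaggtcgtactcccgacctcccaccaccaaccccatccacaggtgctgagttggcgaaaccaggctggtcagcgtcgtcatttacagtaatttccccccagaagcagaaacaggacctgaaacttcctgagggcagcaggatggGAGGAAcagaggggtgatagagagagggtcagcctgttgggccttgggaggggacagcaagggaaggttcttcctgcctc
C1qc: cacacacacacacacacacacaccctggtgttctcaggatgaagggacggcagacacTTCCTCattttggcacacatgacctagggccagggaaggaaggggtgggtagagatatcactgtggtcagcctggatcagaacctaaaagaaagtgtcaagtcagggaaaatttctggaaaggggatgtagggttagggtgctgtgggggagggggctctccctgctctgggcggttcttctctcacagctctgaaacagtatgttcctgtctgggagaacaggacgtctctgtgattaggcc
Trem2: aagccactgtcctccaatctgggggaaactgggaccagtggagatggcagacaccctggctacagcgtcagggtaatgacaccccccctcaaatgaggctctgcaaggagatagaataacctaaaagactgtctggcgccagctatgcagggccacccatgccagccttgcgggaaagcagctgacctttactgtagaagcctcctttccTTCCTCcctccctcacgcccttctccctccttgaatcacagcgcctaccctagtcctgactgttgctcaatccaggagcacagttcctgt

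The members were high together in some libraries and low together in others, and libraries with the same genotype label differed among themselves. The summed level of the 9 genes in NeuN- nuclei was 667, 561 and 561 CPM in WT, 659, 603 and 589 in libraries labelled Mutyh-/-, 599, 596 and 530 with the Ogg1-/- label and 611, 652 and 512 with the DKO label. WT replicate 1 and Mutyh-/- replicate 1 were the highest library for 4 members each, and DKO replicate 2 for the remaining 1. At the low end, DKO replicate 3 was lowest for 5 members and Ogg1-/- replicate 3 for 4. The group means were 597 ± 61.4 CPM in WT (SD, n = 3), 617 ± 37.0 in libraries labelled Mutyh-/-, 575 ± 39.1 with the Ogg1-/- label and 592 ± 71.8 with the DKO label, and all groups overlapped. In NeuN+ nuclei the sum ranged from 84.6 to 89.3 CPM, nearly all of it from Cx3cr1 (mean 42.2 CPM) and P2ry12 (40.9 CPM), which overlap other genes and are uncertain there. RNA was read from bulk nuclei, so fewer microglial nuclei and less RNA per nucleus cannot be told apart in any of these values.

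Over the 12 NeuN- libraries, all 36 pairs of members had a positive correlation of log2 CPM (Pearson's r from 0.55 to 0.96, median 0.85). With each library's genotype mean taken away, r ran from 0.74 to 0.98 with a median of 0.92, so the shared variation lay within genotypes. The libraries share sorting, depth and library preparation, and the values are given as a description. Each library was also given a score, the mean of the members' standardised log2 CPM. The score was 1.28, −0.57 and −0.57 in WT, 1.18, 0.16 and −0.01 in libraries labelled Mutyh-/-, 0.02, 0.08 and −1.42 with the Ogg1-/- label and 0.32, 1.01 and −1.49 with the DKO label. All 35 other microglial genes correlated positively with this score (r from 0.36 to 0.94, median 0.80), while the median over all 21199 genes with a mean of at least 1 CPM was 0.05.

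Among the genes most like the members over the 12 NeuN- libraries, members left out, was Pde3b, a phosphodiesterase of cyclic nucleotides (r = 0.95, Spearman's rho = 0.92). Inpp5d, a lipid phosphatase of immune cells, was another (r = 0.94, rho = 0.96). Srgap2 (r = 0.94, rho = 0.85) and Vsir, an immune checkpoint receptor (r = 0.94, rho = 0.85), were close to these. The interferon-gamma receptor gene Ifngr1 (r = 0.94, rho = 0.91), Slco2b1 (r = 0.93, rho = 0.88), the integrin gene Itgam (r = 0.93, rho = 0.89, with 99.9% of its span inside Gm49368, which had r = 0.94 and rho = 0.84 and may hold the same reads) and Unc13d (r = 0.92, rho = 0.82) also varied with the members. Inpp5d, Slco2b1 and Itgam were already among the 35 other microglial genes. Without the 2 libraries farthest from the median score, Ogg1-/- replicate 3 and DKO replicate 3, r for these genes ran from 0.86 to 0.92, and within genotypes it ran from 0.92 to 0.99.

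Sorting on NeuN tests whether the 9 genes behave as genes of cells without NeuN, and all 9 did. In WT, all 9 were lower in NeuN+ than in NeuN- nuclei (adjusted p below 0.05 and a log2 fold change beyond 1 in either direction), while 21.6% of all 33523 tested genes were lower by this rule. The 3 NeuN+ libraries lay below the 3 NeuN- libraries for each member. Tmem119 was at 0.341% of its NeuN- level in WT, a log2 fold change of −8.17 (95% interval −8.64 to −7.70, adjusted p = 6.15e-19). Trem2 was at 0.495% (log2 −7.63, adjusted p = 9.20e-18). The C1q chains followed, C1qb at 0.588% (log2 −7.40, adjusted p = 9.62e-18), C1qa at 0.666% (log2 −7.21, adjusted p = 3.53e-17) and C1qc at 0.784% (log2 −6.98, adjusted p = 8.65e-18). Csf1r was at 1.56%, a log2 fold change of −6.00 (interval −6.23 to −5.78, adjusted p = 3.21e-21). Tyrobp was at 2.15%, with the widest interval of the 9 (log2 −5.51, −6.22 to −4.79, adjusted p = 1.46e-12). Cx3cr1 and P2ry12 stood apart from the other 7 members. Cx3cr1 kept 24.1% of its NeuN- level (log2 −2.05, interval −2.19 to −1.92, adjusted p = 9.17e-18). P2ry12 kept 42.9% (log2 −1.22, adjusted p = 5.99e-10), the least lowered member. The median over the members was −6.98 and over all tested genes −0.01.

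**Figure D2:**
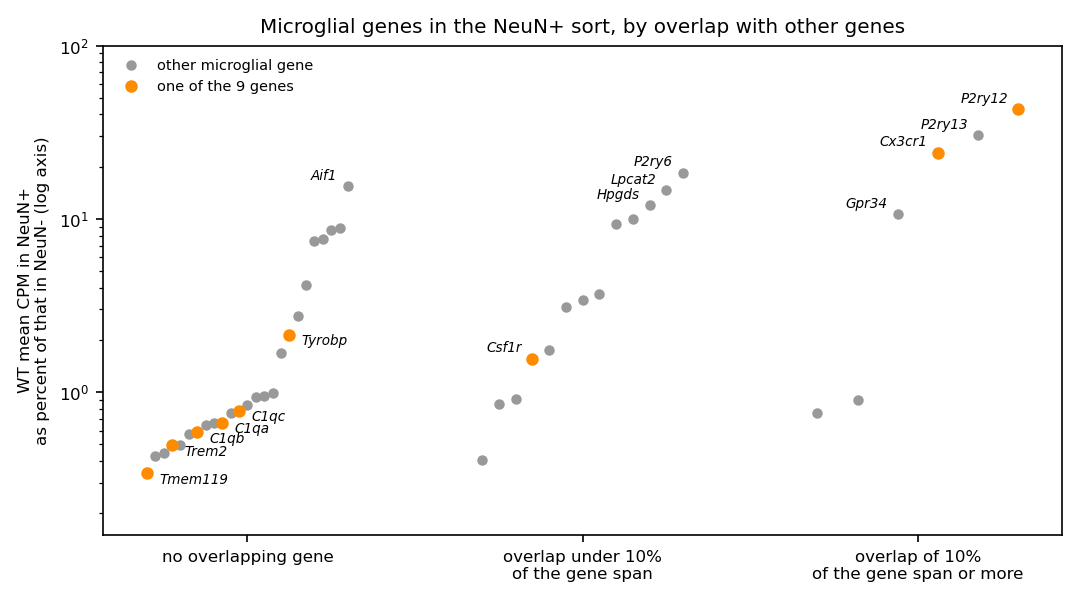
Level in NeuN+ nuclei as a percentage of the NeuN- level in WT for the 9 members and the 35 other microglial genes (log axis), arranged by how much of the gene span is shared with other genes. P2ry12 (42.9%) and Cx3cr1 (24.1%) stand far above the other 7 members, which lie between 0.341% and 2.15%.

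P2ry12 and Cx3cr1 are also the members that share most of their span with other genes. P2ry12 takes up 14.9% of the span of Med12l, and its count was 11.2 to 12.2% of the Med12l count in NeuN+ libraries (median 11.7%), against 37.4 to 45.5% in NeuN- libraries. Within Cx3cr1 lie 7 whole genes, Gorasp1, Ttc21a, Csrnp1, 1700019L13Rik, Gm47043, Gm49427 and Xirp1. Their summed count was 29.4 to 35.9% of that of Cx3cr1 in NeuN+ libraries and 10.4 to 16% in NeuN- libraries. Wdr48 overlaps a further part, with 78.8% of its own span inside the Cx3cr1 model. In NeuN+ libraries the median count was 2157 for Wdr48 beside 2757 for Cx3cr1. In NeuN- libraries it was 2668 beside 13562.5. The part of the Wdr48 count that falls in the overlap was not measured. In NeuN+ nuclei the level of P2ry12 was 41.6, 36.3 and 38.1 CPM in WT, and that of Cx3cr1 was 41.1, 44.5 and 42.5 CPM. Csf1r, which shares little of its span, was at 3.05, 3.00 and 3.37 CPM there. Over the 9 members and the 35 other microglial genes, the NeuN+ level as a percentage of the NeuN- level had a median of 0.845% in the 25 genes that overlap no other gene, with Aif1 alone above 10%. The median was 3.40% in the 13 genes with under 10% of their span shared, of which P2ry6, Lpcat2 and Hpgds were above 10%. It was 17.4% in the 6 genes with more of their span shared, among them Cx3cr1 and P2ry12, and 4 of these were above 10%. How much of the NeuN+ counts of Cx3cr1 and P2ry12 comes from the overlapping genes was not tested, and the level of these members in NeuN+ nuclei is uncertain.

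The marker lists of other cells show what else each fraction held. All 35 other microglial genes were lower in NeuN+ than in NeuN- nuclei of WT, with a median log2 fold change of −5.83 beside the −6.98 of the 9 members. Of the neuronal genes, 8 of 8 were higher (median 3.23). Oligodendrocyte genes (5 of 5 lower, median −7.40), astrocyte genes (6 of 6, −4.24), oligodendrocyte precursor genes (3 of 3, −6.70) and endothelial and pericyte genes (6 of 6, −4.22) sorted with the microglial genes.

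In NeuN- nuclei, comparisons with WT ask whether loss of either glycosylase, or of both, goes with another level of microglial RNA. A gene was called when its adjusted p was below 0.05 and its log2 fold change was beyond 0.5 in either direction, the thresholds of the study. None of the 9 genes was called in any genotype comparison by edgeR, and DESeq2 called 0 of those to which it gave an adjusted p. In libraries labelled Mutyh-/-, 0 of 9 members were called against 0.273% of all genes, and 0 were at an unadjusted p under 0.05 against 13.7% of all genes. The member log2 fold changes ran from −0.11 to 0.20, 5 of them above 0, with a median of 0.07 beside −0.01 over all genes, and a median of −0.03, of the opposite sign, when libraries were scaled to other microglial genes. The largest were those of Tmem119 (0.20, 95% interval −0.03 to 0.44, adjusted p = 0.440) and C1qa (0.20, −0.01 to 0.42, adjusted p = 0.398). In libraries labelled Ogg1-/-, 0 of 9 were called against 0.229% of all genes, and 0 were at an unadjusted p under 0.05 against 11.8%. All 9 values were below 0, but small, from −0.14 to −0.00, with a median of −0.08 beside 0.00 over all genes (−0.05 when scaled to other microglial genes). This direction hung on single libraries, since the median was 0.01 without WT replicate 1 and Trem2 reached 0.14 with a library left out. Tyrobp had the lowest, −0.14 (interval −0.49 to 0.21, adjusted p = 0.802). In libraries labelled DKO, 0 of 9 were called against 0.116% of all genes, and 0 were at an unadjusted p under 0.05 against 12.4%. The values ran from −0.16 to 0.10, 3 above 0 and 6 below, with a median of −0.02 beside 0.01 over all genes. These directions hung on single libraries too, since all members but C1qb and Tyrobp changed sign in a fit without 1 library. P2ry12, for instance, ran from −0.14 to 0.10 in these fits. Across the 3 comparisons no member's interval reached below −0.51, the bound of Tyrobp in libraries labelled DKO, or above 0.44, that of Tmem119 in those labelled Mutyh-/-. The intervals of Cx3cr1 were the narrowest, for instance −0.18 to 0.15 in libraries labelled Mutyh-/-. The 3 comparisons share the WT libraries.

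**Figure D3:**
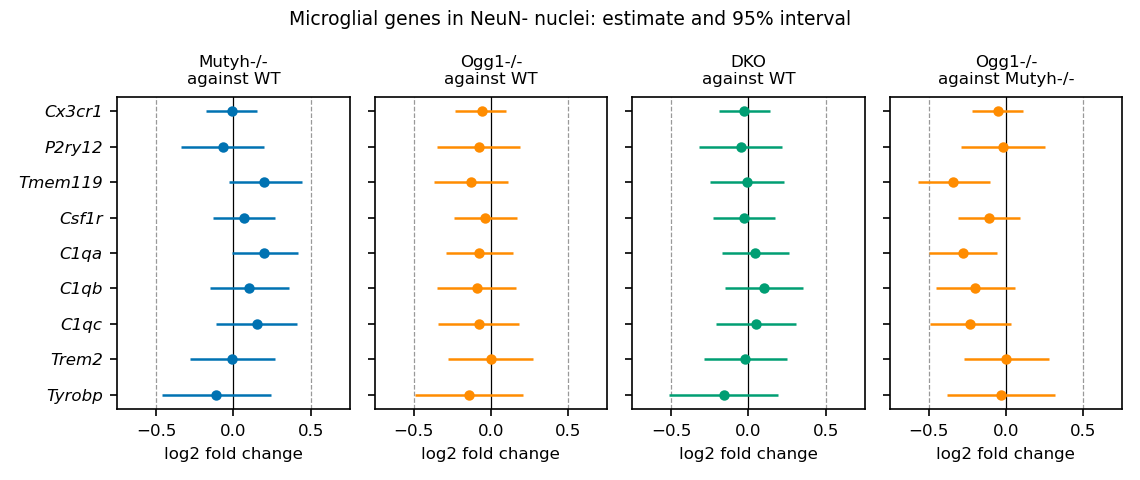
Log2 fold change of each member in NeuN- nuclei (points) with its 95% interval (bars), for each knockout label against WT and for Ogg1-/- against Mutyh-/-; the solid line marks 0 and the dashed lines the fold limit of 0.5. Every interval against WT contains 0, and in the right-hand panel those of Tmem119 and C1qa do not.

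Setting the knockout labels against each other in NeuN- nuclei gave 0 called members too. For libraries labelled Ogg1-/- against Mutyh-/-, 0 of 9 members were called by edgeR and by DESeq2, against 0.521% of all genes, and 2 of 9 were at an unadjusted p under 0.05, against 11.5% of all genes. These were Tmem119, with a log2 fold change of −0.34 (95% interval −0.57 to −0.10, adjusted p = 0.239), and C1qa, with −0.28 (−0.50 to −0.06, adjusted p = 0.292). For both genes all 3 libraries labelled Ogg1-/- lay below all 3 labelled Mutyh-/-, and how many of all genes separate in this way was not counted. The adjusted p of Tmem119 ran from 0.114 to 0.417 over the other settings and from 0.101 to 0.741 with a library left out, and that of C1qa from 0.198 to 0.535 and from 0.239 to 0.793. Of the 9 values 8 were below 0, with a median of −0.11 beside 0.00 over all genes that turned to 0.03 under scaling to the other microglial genes, and 31 of the 35 other microglial genes were also below 0 (median −0.13). When libraries were scaled to the summed counts of these 35 genes, which moved the median of all genes to 0.14, the values were −0.20 for Tmem119 and −0.14 for C1qa. For Mutyh-/- against WT that scaling moved the median of all genes to −0.11.

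For libraries labelled DKO against Mutyh-/-, 0 of 9 members were called by edgeR and by DESeq2 (0.122% of all genes) and 0 were at an unadjusted p under 0.05 (11.0% of all genes). The members' median was −0.05, and 0.01 when scaled to the other microglial genes, with Tmem119 lowest at −0.22 (interval −0.45 to 0.02, adjusted p = 0.491). For libraries labelled DKO against Ogg1-/-, 0 of 9 were called by edgeR and by DESeq2 (0.132% of all genes) and 0 were at an unadjusted p under 0.05 (4.34% of all genes). The median was 0.03, and −0.02 with that scaling, with C1qb highest at 0.19 (interval −0.06 to 0.45, adjusted p = 0.997).

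In NeuN+ nuclei 6 of the 9 members passed the filter on low counts, and Tmem119, Trem2 and Tyrobp did not. DESeq2 gave an adjusted p for Cx3cr1, P2ry12 and Csf1r alone there, so it could not have called a C1q chain. For libraries labelled Mutyh-/-, 0 of 6 were called by edgeR and 0 of 3 by DESeq2, against 0.428% of all genes, and 1 of 6 was at an unadjusted p under 0.05, against 18.7% of all genes. That member was P2ry12, at 44.7, 45.1 and 40.8 CPM where WT had 41.6, 36.3 and 38.1 CPM, a log2 fold change of 0.18 (interval 0.04 to 0.31, adjusted p = 0.159). The groups overlapped, and its reads cannot be told apart from those of Med12l. Cx3cr1 stood at 38.9, 40.6 and 41.0 CPM in libraries labelled Mutyh-/-, all below the WT libraries, with a log2 fold change of −0.08 (−0.19 to 0.02, adjusted p = 0.387). Its reads cannot be told apart from those of Wdr48 and the genes inside it, so the value may not be that of Cx3cr1 RNA. Csf1r, at 2.91, 2.98 and 2.59 CPM, also lay below WT without overlap (log2 −0.15, −0.38 to 0.09, adjusted p = 0.502). How many of all genes separate without overlap was not counted, here or for C1qc below. For libraries labelled Ogg1-/-, 0 of 6 were called by edgeR and 0 of 3 by DESeq2 (0.574% of all genes) and 0 were at an unadjusted p under 0.05 (12.3%). Cx3cr1 stood at 42.6, 42.8 and 44.6 CPM there and P2ry12 at 39.2, 43.1 and 38.2 CPM. For libraries labelled DKO, 0 of 6 were called by edgeR and 0 of 3 by DESeq2 (0.302% of all genes) and 1 was at an unadjusted p under 0.05 (13.5%). This was C1qc, with counts of 4, 8 and 2 per library beside 16, 16 and 7 in WT, and without overlap in CPM. Its log2 fold change of −1.64 had an interval of −2.84 to −0.44 (adjusted p = 0.216). At such counts small changes of the other C1q chains were not detectable either, since the interval of C1qa ran from −2.06 to 0.75 and that of C1qb from −1.43 to 0.85.

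Whether a genotype label went with different effects in the fractions was tested as an interaction, called at an adjusted p under 0.05 with no fold limit. Tmem119, Trem2 and Tyrobp entered it with at most 14 counts in a NeuN+ library, too few to show any but a large difference. For Mutyh-/-, 0 of 9 members were called by edgeR and 0 of 8 by DESeq2, which gave Tyrobp no adjusted p (0.0209% of all genes) and 0 were at an unadjusted p under 0.05 (8.58%). For Ogg1-/-, 0 of 9 were called by edgeR and by DESeq2 (0.0537% of all genes) and 0 were at an unadjusted p under 0.05 (7.09%). For DKO, edgeR called 0 of 9 (0.0567% of all genes) and 1 was at an unadjusted p under 0.05 (9.40%). That member was C1qc, whose effect in NeuN+ minus that in NeuN- nuclei was −1.69 (interval −2.86 to −0.53, adjusted p = 0.336). DESeq2 called it, as 1 of 8 members with an adjusted p, with the same difference of −1.69 and an adjusted p of 0.0481, where the edgeR settings gave 0.167 to 0.314 and fits without 1 library 0.239 to 0.588. The estimate rests on the NeuN+ counts of 2 to 16 per library, so C1qc is not reported as a difference between the fractions.

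The lists around the members follow their roles, and most of these genes also missed the test. Of the 35 other microglial genes, 0 were called by edgeR in any genotype comparison that was run, which in NeuN+ nuclei means those against WT only. Against WT in NeuN- nuclei the number at an unadjusted p under 0.05 was 3 in libraries labelled Mutyh-/-, 0 with the Ogg1-/- label and 1 with the DKO label. Over all genes the shares were 13.7%, 11.8% and 12.4%, and the counts of the lists below stand beside these shares. The 35 genes leaned above 0 in libraries labelled Mutyh-/- (29 of 35, median 0.09) and below with the Ogg1-/- label (24 of 35, median −0.04), and neither lean was tested. Their summed level was 2360, 2060 and 2090 CPM in WT, 2490, 2300 and 2230 in libraries labelled Mutyh-/-, 2280, 2150 and 1980 with the Ogg1-/- label and 2250, 2460 and 1940 with the DKO label, with the lowest libraries the same as for the members. Inpp5d was the most abundant (202 ± 16.4 CPM), and Dock8 (0.27, adjusted p = 0.194), Csf3r (0.37, adjusted p = 0.237), Ptprc and Olfml3 had the smallest p of the list in a NeuN- comparison.

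Among the 5 ligands of the receptors, 0 were called by edgeR, and 1, 1 and 2 were at an unadjusted p under 0.05 in NeuN- libraries labelled Mutyh-/-, Ogg1-/- and DKO. Il34, a ligand of Csf1r, had a log2 fold change of 0.24 (adjusted p = 0.175) and Cx3cl1, the ligand of Cx3cr1, one of −0.32 (adjusted p = 0.280) with the DKO label. Csf1 was the most abundant ligand, at 77.8 ± 7.22 CPM in NeuN- nuclei. Of the 7 purinergic genes, 0 were called by edgeR, with Entpd1, an enzyme that breaks down extracellular nucleotides, the most abundant (135 ± 22.6 CPM). P2rx4, a channel opened by ATP, was at 36.9, 35.6 and 35.1 CPM in libraries labelled Mutyh-/- and 29.5, 28.7 and 27.6 CPM with the Ogg1-/- label. Its log2 fold change of −0.33 had an adjusted p of 0.0390 and stayed below the fold limit. Of the 8 genes that carry the Trem2 signal, 0 were called, and Syk, the kinase that Tyrobp recruits, had 0.27 in libraries labelled Mutyh-/- (adjusted p = 0.232). At an unadjusted p under 0.05 were 2, 0 and 0 purinergic genes and 1, 0 and 0 genes of Trem2 signalling in libraries labelled Mutyh-/-, Ogg1-/- and DKO against WT. Of the 14 inflammation genes, 0 were called, 3, 0 and 1 were at an unadjusted p under 0.05, and Il18 was the most abundant (82.9 ± 5.25 CPM).

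The list of 14 further complement genes, which leaves out C1q, held 2 called genes. Over all genes, against WT, 0.273% were called in NeuN- libraries labelled Mutyh-/- and 0.229% in those labelled Ogg1-/-. In NeuN+ nuclei the shares were 0.428% for Mutyh-/-, 0.574% for Ogg1-/- and 0.302% for DKO. C4b, a component that the C1 complex cleaves, stood at 67.9, 62.8 and 70.1 CPM in the WT libraries of NeuN- nuclei and at 107, 101 and 136 CPM in those labelled Mutyh-/-, above all WT libraries. Libraries labelled Ogg1-/- had 88.6, 86.9 and 79.6 CPM and those labelled DKO 71.5, 86.2 and 77.4 CPM. C4b was called higher in libraries labelled Mutyh-/-, with a log2 fold change of 0.77 (SE 0.101, adjusted p = 0.00613). It stayed called without any 1 library (adjusted p from 0.00547 to 0.0470) and was not called when scaled to the other microglial genes (0.67, adjusted p = 0.0593, with 4.19e-10 to 0.0593 over the settings). C4b has a near-identical copy, C4a, chosen for a look after the values were seen, which was also called higher there (0.69, adjusted p = 0.0200), and reads may be split between the copies, so the gene is uncertain. C4b was the most abundant of the 14 complement genes (86.3 ± 20.5 CPM), and C1qa, C1qb and C1qc, which start the same cascade, were not called in that comparison (adjusted p = 0.398, 0.748 and 0.626). C3, on which the cascade converges, had a log2 fold change of 1.05 in libraries labelled DKO and missed the test (adjusted p = 0.0914).

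Cd59a, an inhibitor of the last step of complement, was called lower in NeuN+ nuclei of each knockout label. It stood at 2.01, 2.07 and 2.00 CPM in WT, 0.771, 0.910 and 1.31 in libraries labelled Mutyh-/-, 1.05, 0.834 and 0.637 with the Ogg1-/- label and 0.847, 0.736 and 0.821 with the DKO label. All 9 libraries with a knockout label lay below all 3 of WT. On the log2 scale it fell by 1.00 for Mutyh-/- (adjusted p = 0.0275), by 1.30 for Ogg1-/- (adjusted p = 0.00295) and by 1.35 for DKO (adjusted p = 0.00402). The call for Mutyh-/- was lost with the replicate number as a block, at the same fold (0.0540), and without WT replicate 1 (0.0881), 2 (0.132) or 3 (0.0656) or Mutyh-/- replicate 1 (0.146) or 2 (0.107), with folds from −0.85 to −1.01, while the settings gave 0.00134 to 0.0540, with no adjusted p from DESeq2 here or for DKO. In NeuN- nuclei Cd59a was also lower than in WT under every knockout label, but it was called against WT with the Ogg1-/- label alone. It had 4.67, 4.37 and 4.77 CPM in WT and 2.06, 2.46 and 2.06 CPM in libraries labelled Ogg1-/-, a log2 fold change of −1.08 (adjusted p = 0.0178). That call was lost without any of the 6 libraries, WT or Ogg1-/- replicates 1, 2 and 3 (adjusted p from 0.0542 to 0.118, folds from −1.03 to −1.17), and with scaling to the other microglial genes (0.139, with 1.56e-06 to 0.139 over the settings), where the fold was still −1.05. Its paralog Cd59b was not called in NeuN+ nuclei (−0.26, −0.14 and −0.24) or in NeuN- nuclei, and whether reads are shared between the paralogs was not measured. The other 12 complement genes were not called in any genotype comparison.

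Activation genes, which microglia raise around plaques or damaged tissue, gave calls in NeuN- libraries labelled Ogg1-/-, against WT for 1 gene of 19 and against Mutyh-/- for 2. Over all genes 0.229% and 0.521% were called in these comparisons. Gpnmb, a membrane glycoprotein, stood at 8.43, 7.96 and 6.20 CPM in the WT libraries of NeuN- nuclei, 8.25, 8.17 and 7.96 in those labelled Mutyh-/-, 4.72, 4.54 and 3.52 with the Ogg1-/- label and 5.83, 6.03 and 8.13 with the DKO label. The 3 libraries labelled Ogg1-/- were the lowest of the 12. Gpnmb was called lower against WT (−0.83, adjusted p = 0.0429) and against Mutyh-/- (−0.93, adjusted p = 0.0137). The call against WT was lost without WT replicate 1 (0.206) or 2 (0.183) or Ogg1-/- replicate 1 (0.102), 2 (0.133) or 3 (0.116), with the replicate block (−0.83, 0.0728) and with scaling to the other microglial genes (−0.80, 0.206). The fold ran from −0.71 to −0.91 without those libraries, and the adjusted p from 4.57e-05 to 0.206 over the settings. The call against Mutyh-/- was lost without Mutyh-/- replicate 1 (−0.91, 0.0801) or Ogg1-/- replicate 2 (−0.98, 0.0602) or 3 (−0.82, 0.0661). It was also lost with that scaling (−0.80, 0.0930), and the settings spanned 1.20e-06 to 0.0930. Clec7a, a receptor for glucans, had counts of 54, 10 and 33 in WT, 54, 45 and 73 in libraries labelled Mutyh-/-, 7, 2 and 8 with the Ogg1-/- label and 23, 14 and 12 with the DKO label. It was called lower in libraries labelled Ogg1-/- against Mutyh-/- (−3.02, SE 0.502, adjusted p = 0.0157), and the call was lost without Mutyh-/- replicate 1 (0.0684) or Ogg1-/- replicate 1 (0.0702) or 2 (0.0799), with folds of −2.61 to −3.14, while the settings that gave an adjusted p, DESeq2 and the filter of 10 counts not among them, spanned 0.00330 to 0.0265. Clec7a is annotated as a polymorphic pseudogene and lies on chromosome 6. Gpnmb and the astrocyte gene Aldh1l1, also called with the Ogg1-/- label, lie on that chromosome too, while Cd59a lies on chromosome 2. Where these genes lie relative to the knocked-out genes was not examined. The other 17 of the 19 activation genes were not called, among them Ank, the most abundant (295 ± 16.6 CPM), which shares 43.5% of its span. Trem2 and Tyrobp, on which the full activated state depends, had log2 fold changes of 0.00 and −0.03 in Ogg1-/- against Mutyh-/- (adjusted p = 0.996 and 0.972).

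**Figure D4:**
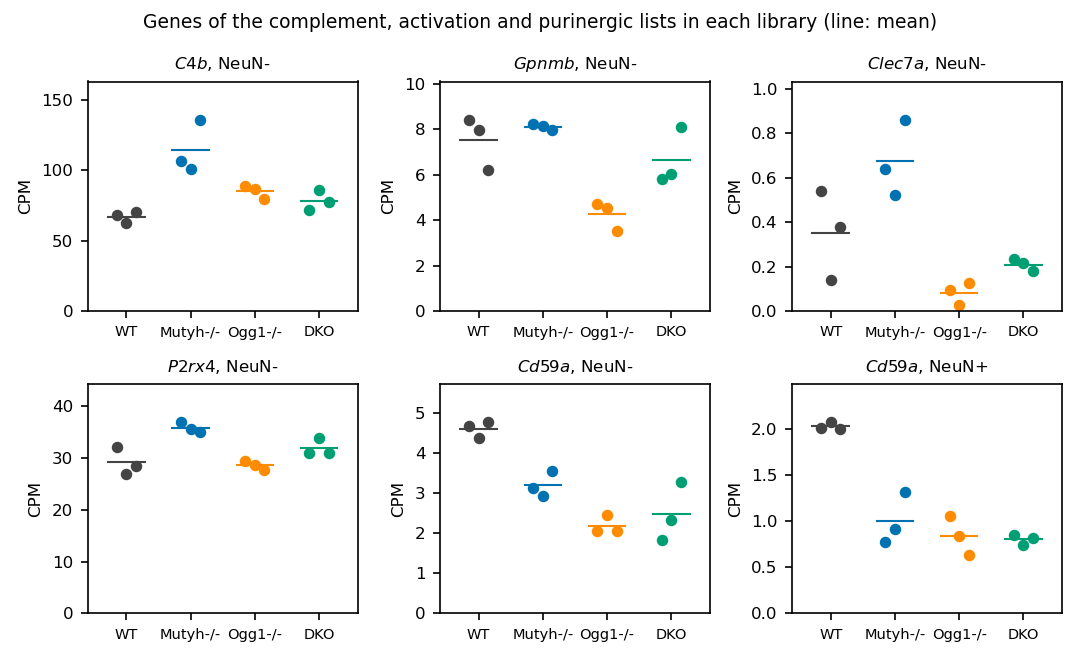
CPM (vertical axes, from 0) of C4b, Gpnmb, Clec7a, P2rx4 and Cd59a in NeuN- nuclei and of Cd59a in NeuN+ nuclei, with a point for each library, a line at the group mean and colours for the genotype labels. C4b is highest in libraries labelled Mutyh-/- and Gpnmb and Clec7a are lowest with the Ogg1-/- label, while Cd59a is lower under every knockout label than in WT.

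The list of TGF-beta signalling and transcription factors holds genes that keep microglia in their resting identity, and 0 of its 12 genes passed both limits in a genotype comparison. Tgfbr1, a TGF-beta receptor, was its most abundant gene in NeuN- nuclei (196 ± 14.7 CPM), and 2, 0 and 0 genes were at an unadjusted p under 0.05 in libraries labelled Mutyh-/-, Ogg1-/- and DKO. Maf, a transcription factor of macrophages and of some neurons, had 17.7, 17.3 and 16.4 CPM in the WT libraries of NeuN+ nuclei and 13.3, 13.4 and 12.9 CPM in those labelled Mutyh-/-. That difference of −0.37 had an adjusted p of 0.00954 and stayed within the fold limit. In NeuN- nuclei Maf had 36.0, 31.0 and 30.5 CPM in WT and 38.4, 35.6 and 36.3 CPM in libraries labelled Mutyh-/- (0.17, adjusted p = 0.263).

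Macrophages at the borders of the brain share genes with microglia, and their markers did not follow the libraries in which the 9 members were high. The summed level of 8 border macrophage genes in NeuN- nuclei was 24.2, 28.6 and 27.2 CPM in WT, 42.0, 32.6 and 51.3 in libraries labelled Mutyh-/-, 30.4, 27.1 and 36.9 with the Ogg1-/- label and 35.4, 27.7 and 57.6 with the DKO label. DKO replicate 3, the lowest library for 5 members, was the highest for this sum. Its choroid plexus sum was also the highest, with 70.9 CPM beside 10.3 and 23.4 in the other libraries labelled DKO, 15.2, 16.9 and 23.2 in WT, 14.9, 12.8 and 13.3 in those labelled Mutyh-/- and 10.5, 28.0 and 29.9 with the Ogg1-/- label. F13a1 (18.6 ± 5.12 CPM) and Kcnj13 (7.56 ± 1.07 CPM) were the most abundant genes of these lists, and no gene of either list was at 0 throughout. Kcnj13 lies wholly inside Gigyf2 and stood at 6.62 CPM in NeuN+ nuclei, so its count cannot be read as RNA of the choroid plexus alone, and F13a1 shares 15.6% of its span. The median correlation with the members' score was −0.35 for the 4 border macrophage genes and −0.58 for the 3 choroid plexus genes with a mean of at least 1 CPM, −0.25 for neuronal genes, −0.07 for astrocyte genes, 0.59 for oligodendrocyte genes and 0.62 for their precursors. The part of these other cells in the members' levels was not tested. All 8 border macrophage genes were above 0 in libraries labelled Mutyh-/- (median 0.80, 6 at an unadjusted p under 0.05) and with the DKO label (median 0.58, 4), and 0 were called by edgeR. Over all genes 13.7% and 12.4% were at an unadjusted p under 0.05 in these comparisons. Mrc1, the mannose receptor, had 0.79 in libraries labelled Mutyh-/- (adjusted p = 0.224). Blood leukocyte genes were near the limit of reading, with 7 of 11 tested, Plac8 the most abundant at 0.836 ± 0.142 CPM, 0 called, and 1, 0 and 2 at an unadjusted p under 0.05.

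**Figure D5:**
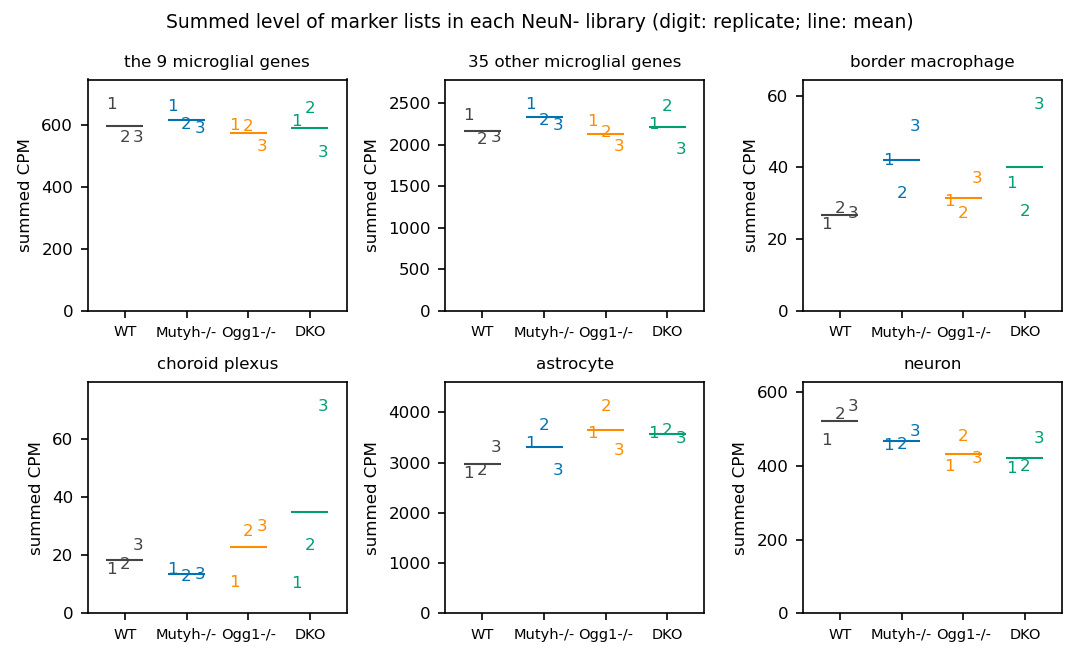
Summed CPM of 6 marker lists in each NeuN- library (vertical axes, from 0), by genotype label, with a digit at each library's value that gives its replicate number and a line at the group mean. The 9 microglial genes and the 35 other microglial genes share their high and low libraries, while border macrophage and choroid plexus sums are highest in DKO replicate 3.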

How the data were processed

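Nuclear RNA was measured in 24 libraries, 3 per genotype label and fraction. The authors aligned read pairs to GRCm38/mm10 and deposited raw counts per gene (Ensembl 102), without normalization. The submitters' processing notes name FastQC 0.11.9, HISAT2 2.1.0, SAMtools 1.10, featureCounts, R 4.3.2 and edgeR 3.42.4.

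Counts were analysed with R 4.3.3, edgeR 4.0.16 (filterByExpr by group, TMM, quasi-likelihood test, Benjamini-Hochberg adjustment over all tested genes) and limma 3.58.1. The 4 genotypes of a fraction were fitted together, with 30132 genes tested for NeuN+ and 31863 for NeuN-. Knockout labels were compared with each other in NeuN- nuclei only. Fraction and interaction tests used all 24 libraries and 33523 genes. Alternatives were DESeq2 1.42.0, other size factors, other filters, no fold limit, fits of 2 groups, a replicate block, scaling to other microglial genes, and leaving out each library.

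The 9 members and 16 gene lists (165 genes in all) were chosen with earlier results of these data known. Named list genes are those called, the most abundant of most lists, and up to 4 per list with the smallest p in NeuN- nuclei. Genes like the members were ranked by Pearson's r of log2 CPM (prior count 2, mean CPM at least 1). Positions came from GENCODE for 96.2% of genes.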

Additional observations from a re-analysis of the deposited data

Results flagged for a closer look

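The effect of the Mutyh-/- label on Maf, a transcription factor of the list on TGF-beta signalling and microglial identity, differed between the fractions by the interaction test of edgeR. The effect in NeuN+ minus that in NeuN- nuclei was −0.55 on the log2 scale (SE 0.0857, adjusted p = 0.0158). The 3 NeuN+ libraries labelled Mutyh-/- lay below the 3 of WT, while in NeuN- nuclei the groups overlapped. The call was lost without WT NeuN- replicate 2 (adjusted p = 0.0667) or 3 (0.0533), Mutyh-/- NeuN- replicate 1 (0.103), WT NeuN+ replicate 1 (0.0702) or 2 (0.0731), or Mutyh-/- NeuN+ replicate 1 (0.0593) or 2 (0.0508). The difference in these fits was −0.50 to −0.56. Under the other settings the adjusted p ran from 4.01e-05 to 0.0229. Maf shares 8.7% of its span with another gene.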

How the results depend on the processing

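The count of members called was 0 in every genotype comparison under every setting that was run, including each fit without 1 library (0 to 0). It was 9 for NeuN+ against NeuN- in WT, also without any 1 library (9 to 9) and with the replicate block (9), and 3 with at least 10 counts in every library, a filter that only 3 members pass. In the interactions it was 0, without any 1 library too (0 to 0), except for the DKO effect under DESeq2, where it was 1, C1qc; the cause was not tested. Of 967 alternative values of member fold changes in genotype comparisons, 96 changed sign and 0 were called. Of 439 for the interactions, 42 changed sign and 1 was called, and all 111 for the fractions were called. DESeq2 gave no adjusted p for 20 member values, those of Tmem119, C1qa, C1qb, C1qc, Trem2 and Tyrobp in each NeuN+ comparison and of Tyrobp in the Mutyh-/- and DKO interactions. Members at an unadjusted p under 0.05 numbered 0 for Mutyh-/- against WT in NeuN- (0 to 2 over the settings, 0 to 2 without 1 library) and 2 for Ogg1-/- against Mutyh-/- (1 to 4, 0 to 3). They numbered 0 for DKO against Mutyh-/- (0 to 1, 0 to 2) and against Ogg1-/- (0 to 1, 0 to 1), and 0 for Ogg1-/- and DKO against WT in NeuN- under every setting. In NeuN+ they numbered 1 for Mutyh-/- (1 to 1, 0 to 2), 0 for Ogg1-/- (0 to 0, 0 to 1) and 1 for DKO (0 to 1, 0 to 1). In the interactions they numbered 0 for Mutyh-/- (0 to 0, 0 to 1), 0 for Ogg1-/- (0 to 0, 0 to 1) and 1 for DKO (0 to 1, 1 to 1).

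The replicate numbers were not taken as a pairing. Libraries with the same number deviated together in 6 of 18 pairs in NeuN+ (median r −0.06), 7 of 18 in NeuN- (0.08) and 8 of 12 across the fractions within a genotype (0.17), counted at r above 0.1. Across the fractions, libraries with different numbers did so in 1 of 24 pairs (−0.10), and 9 of 12 NeuN+ and 10 of 12 NeuN- libraries correlated best with their own number. This is a hint from the data that those libraries are tied, and not every pair shows it. The study's methods state that both fractions were collected at the sort, but the text read here does not link replicate numbers to sorts. The block of genotype and number takes such a tie into account in the fraction and interaction tests. With the replicate block 0 members were called in each genotype comparison and interaction. It moved counts over all genes from 91 to 171 (DKO, NeuN+), 37 to 63 (DKO, NeuN-), 7 to 31 (Mutyh-/- interaction) and 19 to 53 (DKO interaction).

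Counts of called genes over the whole table moved more. Against WT in NeuN+ they were 129 for Mutyh-/- (113 to 625 over the settings, 62 to 837 without 1 library), 173 for Ogg1-/- (172 to 331, 70 to 164) and 91 for DKO (89 to 252, 36 to 137). In NeuN- they were 87 for Mutyh-/- (61 to 227, 31 to 435), 73 for Ogg1-/- (60 to 179, 50 to 74) and 37 for DKO (10 to 177, 19 to 55). Between knockout labels they were 39 for DKO against Mutyh-/- (2 to 142, 4 to 89), 42 for DKO against Ogg1-/- (25 to 67, 30 to 52) and 166 for Ogg1-/- against Mutyh-/- (115 to 299, 66 to 342). The fractions gave 14371 (8615 to 24259) and the interactions 7 (7 to 83, 2 to 95), 18 (16 to 66, 12 to 17) and 19 (17 to 216, 7 to 115) for Mutyh-/-, Ogg1-/- and DKO.

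Depth limits the 6 members with at most 19 counts per NeuN+ library. Small differences of these were not detectable there.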

Other observations

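Markers of other cells in NeuN- nuclei leaned in some comparisons, mostly without a call. Over all genes 13.7%, 11.8% and 12.4% were at an unadjusted p under 0.05 for Mutyh-/-, Ogg1-/- and DKO against WT there. The 8 neuronal genes were all below 0 against WT under each knockout label, with medians of −0.16 for Mutyh-/-, −0.28 for Ogg1-/- and −0.30 for DKO and 4, 5 and 6 genes at an unadjusted p under 0.05, and 0 were called by edgeR. Their summed level was 470, 538 and 560 CPM in WT, 455, 457 and 493 in libraries labelled Mutyh-/-, 399, 480 and 421 with the Ogg1-/- label and 392, 397 and 473 with the DKO label, with Syt1 the most abundant (136 ± 20.3 CPM). Grin1, a glutamate receptor subunit, had the smallest p (−0.51 in DKO, adjusted p = 0.0530).

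Of the 6 astrocyte genes, 1 was called, for Ogg1-/- against WT, where 0.229% of all genes were called. Aldh1l1 stood at 75.5, 94.1 and 96.4 CPM in WT and 132, 133 and 119 CPM in libraries labelled Ogg1-/- (0.52, adjusted p = 0.0483). The call was lost without any of the 6 libraries, WT or Ogg1-/- replicates 1, 2 and 3 (0.0585 to 0.216), with the replicate block (0.52, 0.0738) and with scaling to the other microglial genes (0.54, 0.498, with 9.95e-05 to 0.498 over the settings). The fold was 0.41 to 0.59 without 1 library, and 31.9% of the gene's span is shared with other genes. All 6 were above 0 for Ogg1-/- and DKO (medians 0.25 and 0.25), 1, 4 and 4 were at an unadjusted p under 0.05 for Mutyh-/-, Ogg1-/- and DKO, and Slc1a2 was the most abundant (2500 ± 327 CPM). Oligodendrocyte genes had 0 calls by edgeR and 0, 2 and 2 of 5 at an unadjusted p under 0.05 for Mutyh-/-, Ogg1-/- and DKO. Oligodendrocyte precursor genes had 0 calls and 0, 0 and 0 of 3, with Vcan the most abundant (172 ± 11.1 CPM). Endothelial and pericyte genes had 0 calls and 0, 3 and 1 of 6, with Pdgfrb the most abundant (48.8 ± 4.15 CPM). Choroid plexus genes had 0 calls and 0, 0 and 0 of 5.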
